A study of Mus musculus with 2 samples.

Results

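Lef1 peaks were examined at the genes that encode the subunits of serine/threonine protein phosphatases. The set holds every protein-coding gene in the RefSeq table of GRCm38.p6 whose symbol is Ppp followed by a digit, without the calcineurin (Ppp3) genes, and comes to 72 of 21887 protein-coding genes. The 45 genes of the Ppp1 class encode protein phosphatase 1 (PP1) and its partners, and the 16 of the Ppp2 class encode PP2A. The Ppp4 class has 6 genes, the Ppp6 class 4 and the Ppp5 class 1. The genes were chosen by name, and the set was chosen with peaks of this list already known, so the counts of peaks at its genes are descriptions and carry no test.

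Occupancy was measured by chromatin immunoprecipitation and sequencing with an anti-Lef1 antibody (C18A7) in 1 library of conventional CD4+ T cells (TCRb+, CD4+, CD25-) sorted from spleen, the donors being wild-type C57BL/6 mice 8 to 10 weeks old. The series' text adds that these cells were GFP-negative. The background was 1 library of CD4+ T cells (TCRb+, CD4+) of C57BL/6 strain from CD4-Cre+ Lef1 fl/fl mice, in which Cre driven by Cd4 regulatory sequences deletes the floxed Lef1 gene, precipitated with the same antibody. The sources used here do not give the age of these mice or say whether animals were pooled. Both libraries carry the tissue label naive CD4 T cells, though the gates they give hold no marker of naive cells, and a list of peaks shows occupancy and not expression, so marker genes could not be used to check the cell type. There was no replicate, and the read depth is unknown.

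Serine/threonine phosphatases take phosphate off proteins that kinases have marked. PP1 and PP2A work with a small number of catalytic subunits, and a large set of regulatory subunits decides where the enzyme sits and what it acts on. A PP2A holoenzyme is a catalytic subunit, a scaffold and 1 B subunit. The B subunits among the genes here are of the B55, B'' and B56 kinds. PP2A with B56 subunits is a known part of Wnt signalling, where it acts on the β-catenin destruction complex, and β-catenin is a partner of Lef1. Lef1 itself binds DNA through an HMG box at words built on CTTTG, such as CTTTGA.

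Of the 72 genes, 14 had a Lef1 peak, which is 19.4% (95% exact Clopper-Pearson interval 11.1 to 30.5%). Among all protein-coding genes 1460, or 6.67%, had one. A peak counted for the protein-coding gene whose body its centre lay in or nearest to, up to 50 kb away. All 14 genes had exactly 1 peak. Over all protein-coding genes, 180 of the 1460 with a peak (12.3%) had 2 or more, and 14 genes are too few to read a difference from that share. The other 58 phosphatase genes had none past the threshold of the list. The intervals cover counting error only, and neighbouring peaks and related genes are not independent.

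Sequence was at hand only for the promoter windows of the RefSeq table, so the bases of peaks outside them could not be read. Of the 14 peaks, 2 lay wholly inside such a window, so only these 2 could be searched for CTTTGA, and their bases are shown. The first is the start of Ppp1cc on the plus strand, chr5:122158025-122158292. The second is a start of the long non-coding RNA Gm19605 inside the gene body of Ppp2r5c, read on the minus strand, chr12:110486186-110486435. Each run goes 5′ to 3′ with the peak in capitals. The Gm19605 run ends just before the start, and the last 18 bases of the Ppp1cc run are the first transcribed from its start.
Ppp1cc start: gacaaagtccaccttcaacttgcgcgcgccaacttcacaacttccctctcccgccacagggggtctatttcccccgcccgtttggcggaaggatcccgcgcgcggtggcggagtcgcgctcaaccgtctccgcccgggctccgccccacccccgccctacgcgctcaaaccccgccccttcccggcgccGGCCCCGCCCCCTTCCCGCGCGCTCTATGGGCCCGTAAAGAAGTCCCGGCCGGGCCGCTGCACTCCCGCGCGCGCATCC
Gm19605 start, in Ppp2r5c: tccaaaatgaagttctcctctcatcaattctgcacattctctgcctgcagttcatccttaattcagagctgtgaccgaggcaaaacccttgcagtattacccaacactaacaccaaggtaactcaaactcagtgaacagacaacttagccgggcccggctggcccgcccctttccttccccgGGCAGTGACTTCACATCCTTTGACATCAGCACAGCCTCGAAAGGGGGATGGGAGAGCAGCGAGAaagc

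The peak in the Ppp2r5c gene body held the word CTTTGA on the strand shown, 51 bases before the Gm19605 start. A second copy lay 12 bases past that start, outside the peak. The peak at Ppp1cc held no CTTTG on either strand, in a window with 73.0% G and C against a median of 56.3% over all protein-coding windows. Of all 143 peaks of the list that lay wholly inside a promoter window of any gene, 20 (14.0%, 95% exact interval 8.76 to 20.8%) held CTTTGA. Such peaks are mostly much shorter than a window of 300 bases, so this share cannot be set beside shares of whole windows. The share for other stretches of their length was not counted. A match of letters is a description and no measured binding site.

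Of the 9 genes for catalytic subunits, which remove the phosphate, 2 had a peak (22.2%, against 6.67% of all protein-coding genes). Ppp1cc, the gamma catalytic subunit of PP1, had a peak of score 5.12 and 79 bp (chromosome 5, 122158214 to 122158292, mm10). The score is the −log10 p that the authors deposited for the peak against the Lef1-deficient library, and its median over all 2052 peaks was 4.40. The centre of the Ppp1cc peak lay 22 bp before a start of the gene and 3.29 kb inside the annotated gene body. Ppp2cb, the beta catalytic subunit of PP2A, had a peak of 4.11 (chromosome 8, 33599996 to 33600091) just inside its low-coordinate end, 422 bp from it. Only 6.43% of the peaks in the list scored lower than that.

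The other 7 catalytic genes had none. The nearest peak to Ppp1ccb lay 8.48 kb away, but nearer to Thumpd1. For Ppp5c it lay 99.2 kb away, inside Psg16 (4.40). Ppp2ca, which encodes the other PP2A catalytic subunit, had its nearest peak at 161 kb, and that peak was assigned to Tcf7. The distances were 137 kb for Ppp4c, 370 kb for Ppp6c and 760 kb for Ppp1cb. The PP2A scaffold genes also had no peak, with the nearest 108 kb from Ppp2r1b and 2630 kb from Ppp2r1a.

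Among regulatory subunits, 12 of 63 genes had a peak (19.0%, 95% exact interval 10.2 to 30.9%), close to the share among catalytic genes (22.2%, 2.81 to 60.0%). The share of all protein-coding genes was 6.67%. The set was chosen with these peaks known, so the intervals do not test either role against that share. Counts by group of paralogs are set beside the same 6.67%. The B56 subunits of PP2A had peaks at 3 of 5 genes and the myosin-targeting family of PP1 also at 3 of 5. The SAPS subunits of PP6, which direct that enzyme to its substrates, had them at 2 of 3. The B55 subunits of PP2A (0 of 4) and the PP4 regulatory subunits (0 of 5) had none. Their intervals (0 to 60.2% and 0 to 52.2%) hold 6.67%. With so few genes the intervals of these groups overlap widely, from 14.7 to 94.7% for B56 against 0 to 60.2% for B55, so the groups cannot be ranked.

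**Figure D1:**
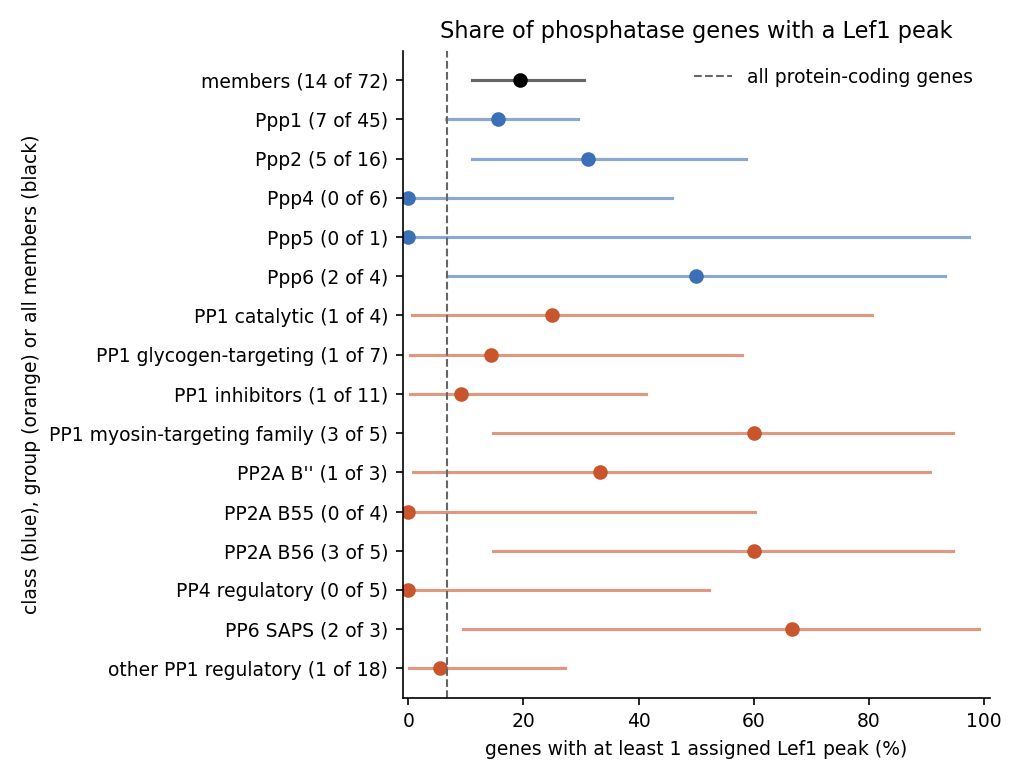
Share of genes with at least 1 assigned Lef1 peak (horizontal axis, percent) for all phosphatase genes, for the 5 classes and for the groups of 3 genes or more. Points are shares, lines are 95% exact binomial intervals, and the dashed line is the share of all protein-coding genes (6.67%). The B56, myosin-targeting and SAPS groups sit highest, and all intervals are wide.

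In the B56 group, Ppp2r5c had the second highest score of the whole set at 6.82 (chromosome 12, 110486190 to 110486253), which 197 peaks of the list exceeded. B56 subunits of this kind hold PP2A at substrates that carry a short docking motif. The peak lay 39.1 kb inside the gene body and 424 bp past a start of Ppp2r5c, and its centre was 36 bp from the Gm19605 start shown above. Ppp2r5b had a peak of 4.11 (chromosome 19, 6235722 to 6235785), 87 bp past the start of the gene. Ppp2r5a had one of 5.09 (chromosome 1, 191446278 to 191446354), but 49.3 kb before its start and inside the long non-coding RNA gene Gm32200. Thus the B56 peaks lay at a start in 2 genes and far from one in the third. Ppp2r5d and Ppp2r5e had none.

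Ppp2r3c, a B'' subunit of PP2A, had a peak of 4.14 (chromosome 12, 55302770 to 55302824). It lay 203 bp past a start of Ppp2r3c and 160 bp past the start of Prorp, which is read in the opposite direction. Both gene bodies hold the peak, so that it belongs to either, and without peaks in several gene bodies 13 of the 72 genes had one, against 6.61% of all genes. The other genes of the B'' group, Ppp2r3a and Ppp2r3d, had none.

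In the PP6 class, Ppp6r2 had the highest score of the whole set. Its peak of 8.21 (chromosome 15, 89282651 to 89282832) was also the widest of the 14 at 182 bp, and 82 peaks of the list scored higher. It lay inside the gene, 71.2 kb past the start and 4.27 kb before the far end, with Sbf1 as the nearest other coding gene at 5.50 kb. Ppp6r3 was at the other end of the scale. Its peak scored 4.09 (chromosome 19, 3576150 to 3576243), the lowest of the set, and 1920 peaks of the list scored higher. The peak lay 0.447 kb before a start of Ppp6r3, 163 bp outside the gene body and 67 bp from the transfer RNA gene n-TAagc9. Its part in the peak was not tested. Ppp6r1 had none.

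**Figure D2:**
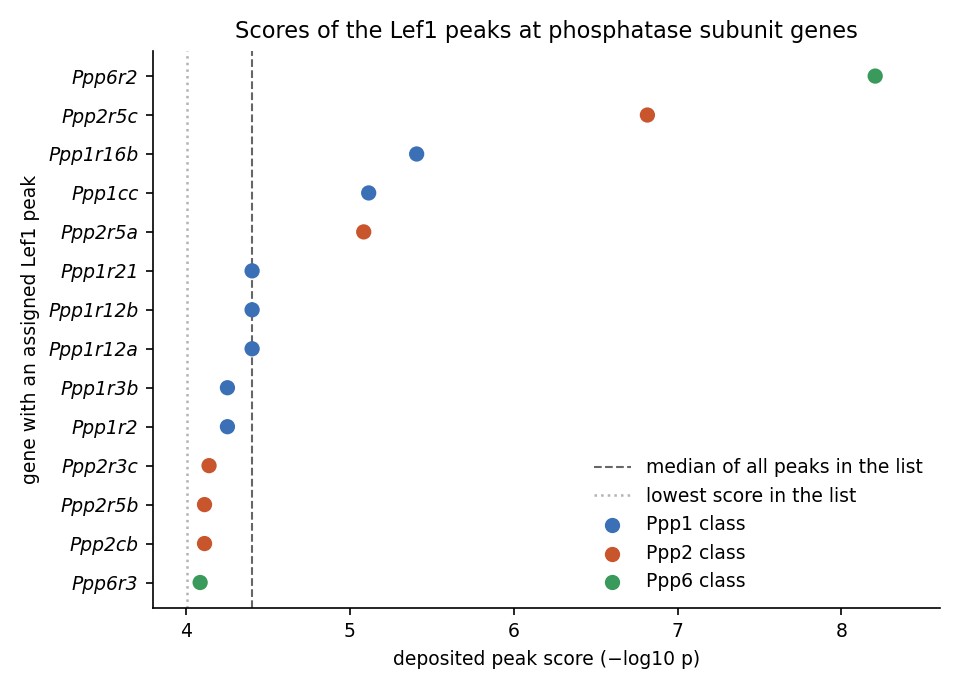
Deposited score (−log10 p, horizontal axis) of the 14 peaks, 1 point per gene, coloured by class. The dotted line is the lowest score of the list (4.01) and the dashed line its median (4.40), and 5 genes from Ppp2r5a to Ppp6r2 lie above that median.

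The myosin-targeting family of PP1 brings the enzyme to myosin and to membranes. Ppp1r16b, a membrane-anchored member of this family, had a peak of 5.41 (chromosome 2, 158719238 to 158719360) deep inside the gene, 52.2 kb past the nearest start. Ppp1r12a and Ppp1r12b encode the myosin phosphatase targeting subunits. The peak of Ppp1r12b scored 4.40 (chromosome 1, 134829855 to 134829909) and lay inside the gene, 26.0 kb from its nearest start. That of Ppp1r12a also scored 4.40 (chromosome 10, 108150225 to 108150317). It lay 11.8 kb before the gene and 224 bp from the long non-coding RNA gene Gm40754. Each peak of this family was thus more than 10 kb from a start of its gene. Ppp1r12c and Ppp1r16a had none.

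Further Ppp1 peaks were low in score. Ppp1r2, which encodes inhibitor-2 of PP1, had 4.25 (chromosome 16, 31274867 to 31274927), 380 bp past its start, and was the 1 gene of 11 PP1 inhibitors with a peak. Ppp1r3b, a subunit that brings PP1 to glycogen, had 4.25 (chromosome 8, 35328103 to 35328160) at 47.6 kb, and was 1 of 7 glycogen-targeting genes. Ppp1r21, which encodes an endosomal protein, had 4.40 (chromosome 17, 88527232 to 88527293), 2.86 kb before its start. It was the 1 of 18 other PP1 regulatory genes with a peak. The shares were 9.09% of the inhibitors, 14.3% of the glycogen-targeting genes and 5.56% of the others, against 6.67% of all protein-coding genes. The 95% exact interval of each of these groups holds 6.67%. Over the class, 7 of 45 Ppp1 genes (15.6%, 95% exact interval 6.49 to 29.5%) and 5 of 16 Ppp2 genes (31.2%, 11 to 58.7%) had a peak, and the intervals overlap. Both shares are set beside the 6.67% of all protein-coding genes as a description. The set was chosen with these peaks known, so neither interval tests a class against that share.

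The median score of the 14 peaks was 4.40 and that of all peaks 4.40, and 5 of 14 (35.7%, 95% exact interval 12.8 to 64.9%) lay above that value against 30.6% of all peaks. Of the 14, 3 shared the score that 828 peaks of the list have, and 6 (42.9%) lay below it, against 29% of all peaks. Their median width was 70 bp against 79 bp over the list. With peaks above the median score alone, 5 of the 72 genes (6.94%) had a peak, namely Ppp6r2, Ppp2r5c, Ppp1r16b, Ppp1cc and Ppp2r5a, against 2.28% of all genes.

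The position of the peaks relative to starts differed between genes. Starts were those of the RefSeq promoter windows, which had an entry for 58 of the 72 genes and for 12 of the 14 with a peak (not Ppp2cb and Ppp1r3b). Of these 12 peaks, 6 lay within 1 kb of a start of their own gene (50%, 95% exact interval 21.1 to 78.9%). Among all 1348 assigned peaks whose gene had an entry, 27.4% did, which is inside that interval. The 6 were those of Ppp1cc, Ppp1r2, Ppp2r3c, Ppp2r5b, Ppp2r5c and Ppp6r3. The median distance to a start was 1.65 kb for the phosphatase peaks and 13.6 kb for all. The 1.65 kb falls in a gap between 0.447 kb (Ppp6r3) and 2.86 kb (Ppp1r21), with no peak near it. By gene body, 9 of the 14 peaks (64.3%) lay inside the gene, against 62.1% of all assigned peaks.

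**Figure D3:**
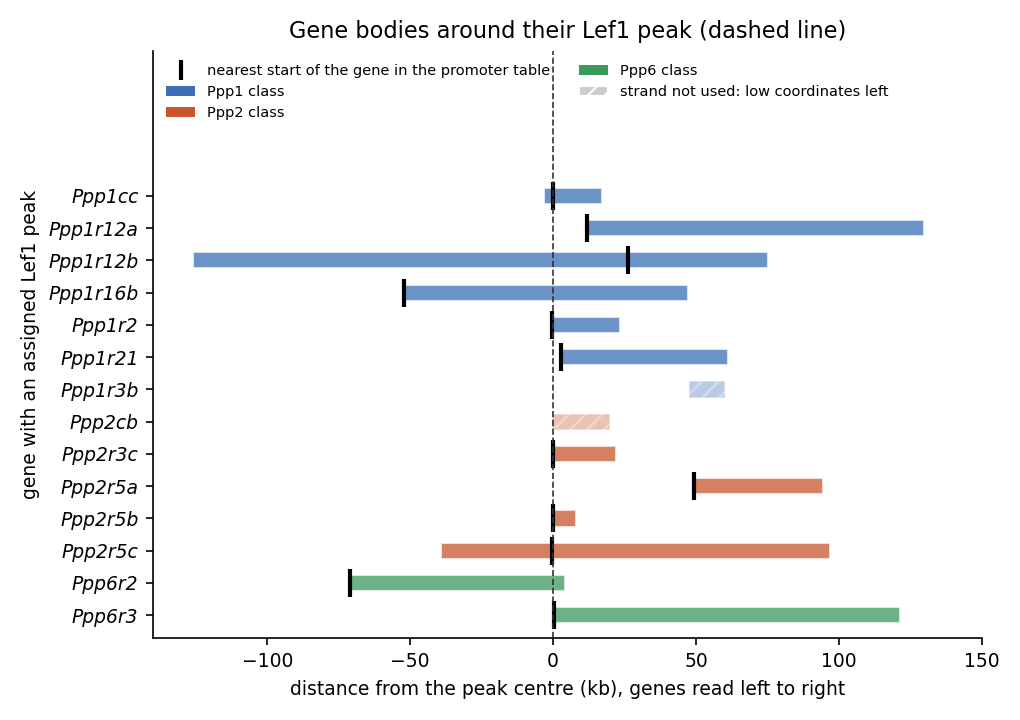
Gene bodies (bars) of the 14 genes placed by distance in kb from the centre of their peak (dashed line at 0), each read from left to right, with the nearest start of the gene as a black tick. The hatched bars are the 2 genes whose strand was not used. In 6 genes the tick falls on or beside the dashed line.

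Promoter windows of the phosphatase genes held CTTTGA about as often as others. Each window runs from 250 bases before to 50 after a start, and the word was sought on both strands (as CTTTGA or TCAAAG). It was found in 10 of 71 windows (14.1%, 95% exact interval 6.97 to 24.4%), against 14.4% of the 21263 windows of all protein-coding genes. Of the 15 windows of genes with a peak, only that of Ppp6r3 held it, and the peak of Ppp6r3 lay 151 bp outside that window. Of the 263 protein-coding windows that a peak of the list touched, 24.0% held it (18.9 to 29.6%). The core word CTTTG was in 31 of the 71 windows (43.7%, 31.9 to 56%), against 51.2% of all windows. The longer words CTTTGAA and CTTTGAT overlap CTTTGA, and they were in 2 and 3 of the 71 windows, against 4.54% and 3.22% of all windows. CCGGAA, a word of ETS factors, was in 15 (21.1%, 12.3 to 32.4%, against 18.7% of all). TGTGGT, a word of RUNX factors, was in 5 (7.04%, 2.33 to 15.7%), and that interval holds the 15.0% of all windows. The median G and C content was 63.0% in the 71 windows and 56.3% in all.

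Gene length moved with the counts. The phosphatase genes with a peak had a median body length of 51.7 kb and those without 21.2 kb, and over all genes the medians were 43.3 kb and 16.1 kb. The groups with the highest shares had long genes, with medians of 45061 bp (B56), 99602 bp (myosin-targeting) and 75565 bp (SAPS). The median of all protein-coding genes was 17169 bp. The B55 and PP4 regulatory groups, which had no peak, were also long (73324 and 47822 bp). All protein-coding genes were split by length into 4 bins of equal size. In the longest (44.3 kb or more), 8 of 21 phosphatase genes had a peak (38.1%, 95% exact interval 18.1 to 61.6%) against 13% of all genes. In the bin below it, 4 of 23 had one (17.4%, 4.95 to 38.8%) against 7.06%, and in the next 2 of 15 (13.3%, 1.66 to 40.5%) against 4.50%. In the shortest 0 of 13 had a peak, which allows a share of up to 24.7% by the exact interval, against 2.08% of all genes. The phosphatase share was thus above that of all genes in 3 of 4 bins and below it in the shortest. The set was chosen with these peaks known, so the intervals show counting error and do not test any bin against all genes. The part of length in the count was not tested.

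**Figure D4:**
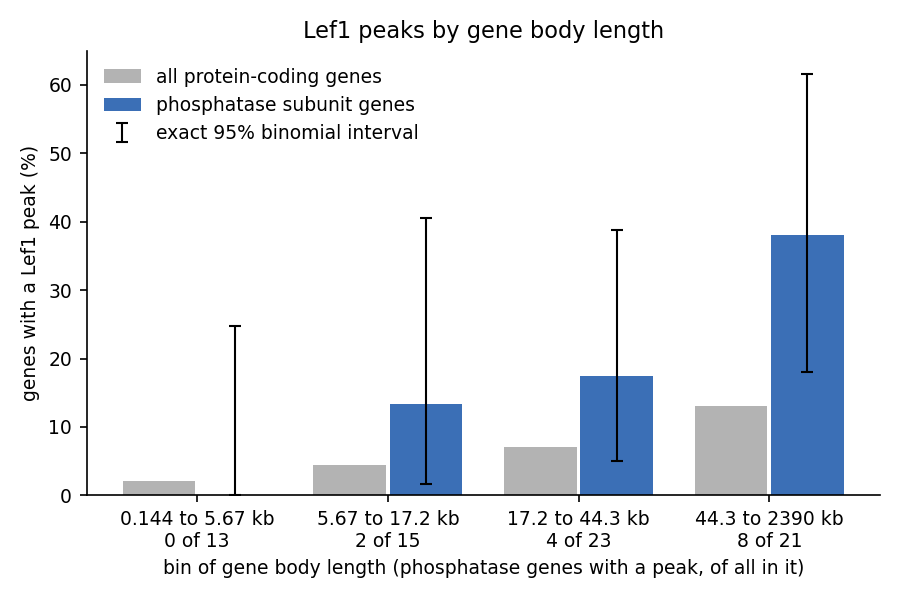
Share of genes with a Lef1 peak (vertical axis, percent) in 4 bins of gene body length, each with the same number of protein-coding genes. Grey bars are all genes, blue bars the phosphatase genes with 95% exact binomial intervals. Both rise with length, to 13% and 38.1% in the longest bin.

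A limit of 100 kb in place of 50 kb gave the same 14 phosphatase genes with a peak, against 7.06% of all genes. Just inside 50 kb lay the peaks of Ppp1r3b at 47.6 kb and Ppp2r5a at 49.3 kb. Another 6 phosphatase genes had a peak within 50 kb that went to a nearer gene. These were Ppp1r14b (3.59 kb, nearer to Fkbp2), Ppp1ccb, Ppp1r1c (37.5 kb, inside Pde1a), Ppp2r2c (40 kb, inside Man2b2), Ppp1r18 (42.8 kb, inside Ier3) and Ppp2r3d (49.7 kb, inside Gm20783). The peak in Ier3 had the highest score of these at 5.51, and it was also the nearest to Ppp1r10, at 93.7 kb. Just outside 50 kb lay those of Ppp1r14a (51.2 kb, inside Yif1b) and Ppp1r15b (55 kb, inside Plekha6). The nearest peak was 63.9 kb from Ppp1r13l (inside Rtn2), 79.6 kb from Ppp1r8 (nearer to Fam76a) and 85.5 kb from Ppp1r42 (inside Sgk3). For 44 genes no peak lay within 100 kb, and Ppp1r3f, the only gene of the set on chromosome X, was farthest at 6920 kb.

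Phosphatase genes and partners outside these names were set beside them. Of 12 PP1 partners, 2 had one (16.7%, 95% exact interval 2.09 to 48.4%): Phactr2, an actin-binding regulator of PP1 (4.40), and Shoc2, the scaffold that joins PP1 to Ras (4.40). Of 23 PP2A partners and regulators, 2 had one (8.70%, 1.07 to 28.0%). Anp32a, an inhibitor of PP2A, had a peak of 7.33 inside the gene (chromosome 9, 62344646 to 62344740), and Strn3, a striatin scaffold, one of 4.25 that another gene body also held. Of 18 metal-dependent phosphatases, a separate family of serine/threonine phosphatases, Ppm1h and Phlpp2 had one each at 4.40. Among the calcineurin subunits and Ppef genes, Ppp3r1 (4.40) was the 1 of 7, and the 3 ankyrin subunits of PP6 had none. The interval of each list holds both 6.67% and the 19.4% of the Ppp genes, so no difference between them can be read at these sizes.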

How the data were processed

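The authors deposited 1 list of 2052 Lef1 peaks with the −log10 of each p-value per the file headers. The wild-type library was the treatment and the Lef1-deficient library the control. FastQC, Bowtie2 2.3.4.1, MACS2 2.1.1 and mm10 are named in the submitters' processing notes, without parameters. Peak numbers in the names run from 26 to 33876, so other calls are unlisted. Depth is unknown, and a score measures 1 library against 1 control.

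Starts were raised by 1 to 1-based positions. The centre of a peak decided its gene, the nearest protein-coding gene body (RefSeq, GRCm38.p6, the assembly mm10 denotes) within 50 kb, which 1668 peaks had. Of these, 16 lay in several bodies and went to the one with the lowest start. Promoter windows (32851, GRCm38.p6) gave strand, starts and sequence. Among 1683 overlapping windows on opposite strands, 1683 had identical bases. The assignment was tested on simulated data. Python 3.11.15, pandas 2.3.3 and scipy 1.17.1 were used.

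The genes named are all members with a peak, catalytic and scaffold genes without one, members with the nearest peak at 50 to 100 kb, and genes of the other lists with a peak. Paralogs, neighbours within 50 kb and genes named beside a peak were added to these after their values were seen. Members and lists were chosen with earlier results of these data known. No test was run, since each group has 1 library. The surroundings of 1 member without a peak are not reported here.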

Additional observations from a re-analysis of the deposited data

How the results depend on the processing

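Of 54 repeats, 41 stayed within 1.5 times the value (or, for shares of peaks and windows, inside its 95% exact interval) and 13 moved. With peaks above the median score, 5 members had 5 peaks, 2 of them Ppp1 and 2 Ppp2 genes, against 2.28% of all genes. With peaks above 4.99 the counts were again 5, 5, 2 and 2, against 1.68% of all genes. The share of member windows with the motif was 43.7% for CTTTG (51.2% of all windows), 2.82% for CTTTGAA and 4.23% for CTTTGAT in place of 14.1% for CTTTGA, since shorter words match more often. Within 10 kb 11 members had a peak (without Ppp1r12a, Ppp1r3b and Ppp2r5a, against 5.64% of all genes), and within 100 kb 14 (7.06%). Bodies extended by 5 kb gave 12 (6.21% of all genes), with the same 3 lost and Ppp1r14b gained. When all annotated genes competed, 10 members had a peak, without those 3 and Ppp6r3, against 5.57% of all genes. Counting or leaving out peaks in several gene bodies was chosen after seeing the data. No paired analysis was possible because there are 2 libraries, 1 per genotype, and a single list; for the same reason no replicate could be left out. Depth is unknown, so a lack of peaks at a gene says only that no site passed here.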

Other observations

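The distance of a peak to a start was set beside its score. Of the 12 peaks whose gene had a start in the promoter table, the 4 that scored below 4.40 (Ppp1r2, Ppp2r3c, Ppp2r5b and Ppp6r3) all lay within 1 kb of a start. Of the other 2 genes with a peak below 4.40, which had no start there, Ppp2cb had its peak 422 bp from an end of the gene and Ppp1r3b 47.6 kb outside the gene. Of the 3 that scored exactly 4.40 (Ppp1r12a, Ppp1r12b and Ppp1r21) none did. Of the 5 above it, Ppp1cc and Ppp2r5c did, and Ppp1r16b, Ppp2r5a and Ppp6r2 did not. Over all assigned peaks with a start, 35.3% of the 445 below 4.40 lay that near (95% exact interval 30.8 to 39.9%), 14.6% of the 460 at 4.40 (11.5 to 18.1%) and 32.7% of the 443 above it (28.4 to 37.3%). The bins were chosen after the values were seen and were not tested.

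Other genes lay next to some of the peaks. Non-coding genes were Gm19605 at Ppp2r5c (36 bp from the peak centre), n-TAagc9 at Ppp6r3 (67 bp), Gm40754 at Ppp1r12a (224 bp) and Gm32200 at Ppp2r5a, which held the peak, as the coding gene Prorp did at Ppp2r3c. How often peaks of the whole list have such neighbours was not counted. Whether Lef1 at these sites bears on the phosphatase gene or on its neighbour was not tested.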
